A study of Mus musculus with 8 samples.

Results

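The Bcl2 family sets the threshold at which a cell commits to death through its mitochondria. This account follows 10 of its transcripts and partners in mouse retina: the pore-forming effectors Bax and Bak1, the guardians Bcl2, Bcl2l1 and Mcl1, the BH3-only genes Bcl2l11, Bbc3, Hrk and Bid, and Diablo. The genes were picked by symbol, and all 10 were found among the 24860 gene symbols of the deposited table. RNA sequencing was run on 4 libraries labelled AAV2-shCX36, made with an adeno-associated viral vector carrying a short hairpin RNA against connexin 36, and on 4 libraries labelled AAV2-scramble, the control hairpin in the same vector type. Connexin 36, encoded by Gjd2, forms gap junctions between retinal neurons. The labels give retina as tissue and RGCs (retinal ganglion cells) as cell type. They give no strain, age, injury, time after injection, promoter or cell sorting, and no library preparation batch, and they do not tie libraries to animals. The p-values therefore describe variation among the deposited libraries, which may be technical.

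In a healthy cell, Bcl2, Bcl2l1 (Bcl-xL) and Mcl1 hold Bax and Bak1 in check on the outer mitochondrial membrane. Stress raises or activates BH3-only proteins such as Bim (Bcl2l11), Puma (Bbc3), Hrk and Bid, which bind the guardians or the effectors directly. Once Bax or Bak1 opens the membrane, cytochrome c drives the Apaf1 and caspase 9 apoptosome, and Diablo (Smac) relieves caspases of inhibitors such as Xiap. In mice, loss of Bax spares retinal ganglion cell bodies after optic nerve injury, which is why these genes are followed in studies of neuroprotection.

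Levels are FPKM, fragment counts scaled by the authors to gene length and library size. The values step in whole fragments, and all 12858 genes tested could be read back as whole fragments within 0.02 of a fragment. The recovered totals were 36927347 to 38049463 fragments in AAV2-shCX36 libraries and 35820476 to 38890686 in AAV2-scramble libraries. Gjd2, the targeted gene, had 17.0, 14, 14.6 and 16.6 FPKM in AAV2-shCX36 libraries 1 to 4, against 38.7, 35.9, 17.4 and 18.2 in AAV2-scramble libraries 1 to 4. No value overlapped (two-sided exact permutation p = 0.0286, the smallest that 4 against 4 libraries allow), though AAV2-scramble 3 and 4 lay close to the AAV2-shCX36 range. In limma the log2 difference of Gjd2 was -0.70, with an adjusted p over all genes of 0.148. The size depended on the controls used. It was -0.19 against AAV2-scramble 3 and 4 alone (adjusted p = 0.245 in limma) and -1.21 against AAV2-scramble 1 and 2 alone (adjusted p = 0.00083). AAV2-scramble 1 and 2 stood apart from the other libraries: the 8 oligodendrocyte markers summed to 10.7 to 12.1 FPKM in AAV2-shCX36 libraries, against 57.3, 183, 11.5 and 11.6 FPKM in AAV2-scramble libraries 1 to 4. The 8 bipolar cell markers split the controls in the same way, with 115 to 183 FPKM in AAV2-shCX36 libraries, against 375, 381, 85.9 and 121 FPKM in AAV2-scramble libraries 1 to 4. The 9 microglia markers had 229 to 362 FPKM in AAV2-shCX36 libraries, against 877, 822, 442 and 194 in AAV2-scramble libraries 1 to 4. All 12 ganglion cell markers were present, at 2744 to 2948 FPKM summed in AAV2-shCX36 and 1700 to 2932 in AAV2-scramble, but so were all 10 rod markers (1243 to 1733 against 1970 to 2841) and all 8 Müller glia markers (315 to 495 against 544 to 932), so the RNA was not of ganglion cells alone.

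The genes whose groups separated were Bak1 and Diablo, which rose in AAV2-shCX36, and Bcl2, which was lower without passing the threshold. The sequence before their RefSeq starts is shown because these are the genes on which the comparison turns. Each sequence is the 250 bases before the annotated start from RefSeq on GRCm38.p6, written 5′ to 3′ along the gene, with GC boxes (GGGCGG on either strand) in capitals. The Bak1 window is chr17:27028628-27028877, minus strand, the Diablo window chr5:123524165-123524414, minus strand, and the Bcl2 window chr1:106714291-106714540, minus strand. The Bak1 window lies inside the gene as GENCODE gives it (27019810 to 27029009), so the RefSeq and GENCODE starts differ. Of the windows counted below, the Hrk window, every Bbc3 window and some of the Bcl2l11 and Bcl2l1 windows also lie inside their GENCODE genes. The Diablo and Bid windows run partly into theirs. Which start is used in these libraries was not tested.
Bak1: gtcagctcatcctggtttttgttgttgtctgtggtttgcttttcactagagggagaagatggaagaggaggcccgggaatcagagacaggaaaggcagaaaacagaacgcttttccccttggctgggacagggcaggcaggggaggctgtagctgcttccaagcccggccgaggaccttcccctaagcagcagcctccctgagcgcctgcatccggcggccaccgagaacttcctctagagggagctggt
Diablo: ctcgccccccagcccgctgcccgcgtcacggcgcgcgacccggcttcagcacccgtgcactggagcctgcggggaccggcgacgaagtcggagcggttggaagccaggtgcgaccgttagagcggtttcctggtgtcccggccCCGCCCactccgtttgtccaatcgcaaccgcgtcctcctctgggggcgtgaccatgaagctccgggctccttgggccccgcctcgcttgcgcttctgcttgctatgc
Bcl2: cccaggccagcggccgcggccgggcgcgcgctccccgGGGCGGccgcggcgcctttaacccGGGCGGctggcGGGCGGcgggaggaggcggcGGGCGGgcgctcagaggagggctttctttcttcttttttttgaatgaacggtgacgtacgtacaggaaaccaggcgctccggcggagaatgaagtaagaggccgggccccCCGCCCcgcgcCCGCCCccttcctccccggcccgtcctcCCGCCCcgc

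The letters of the windows differed widely among the 3 genes. The Bcl2 window was 74.8% G or C with 7 GC boxes, the Diablo window 70.4% with 1, and the Bak1 window 58.4% with none, where the median of all windows was 52.4%. Over the 10 genes, RefSeq lists 15 start windows, of which 11 (in 8 genes) held a GC box, against 32.7% of all 32851 windows. Some windows belong to the same gene and overlap, as for Bbc3, and windows of like G and C content were not compared. An interferon-stimulated response element (GAAA, any 2 bases, GAAA), a gamma-activated site (TTCNNNGAA) and a cyclic AMP response element (TGACGTCA), each read on either strand, were in none of the 15 windows and in 2.98%, 7.02% and 1.55% of all windows. These are matches of letters in the windows searched.

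The 10 transcripts spanned a 50.3-fold range of mean level. Bcl2l1 (27.3 ± 2.50 FPKM, SD over all 8 libraries) and Bax (26.3 ± 4.01) were the most abundant, and neither stood above the other beyond its spread, with Bcl2l1 higher in 5 of 8 libraries. Diablo followed at 14.9, then Mcl1 at 11.7 and Bak1 at 8.57 FPKM. Each of these was above the next in 7 of 8 libraries, except Bak1, which was above Bcl2 in all 8. Bcl2 (2.51 FPKM), Bbc3 (2.26), Bid (1.80) and Bcl2l11 (1.15) formed a low group in which neighbours overlapped in range. Hrk was lowest at 0.543 FPKM. Of the 3 guardians, Bcl2l1 had the highest and Bcl2 the lowest FPKM, a level per length, in each of the 8 libraries.

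**Figure D1:**
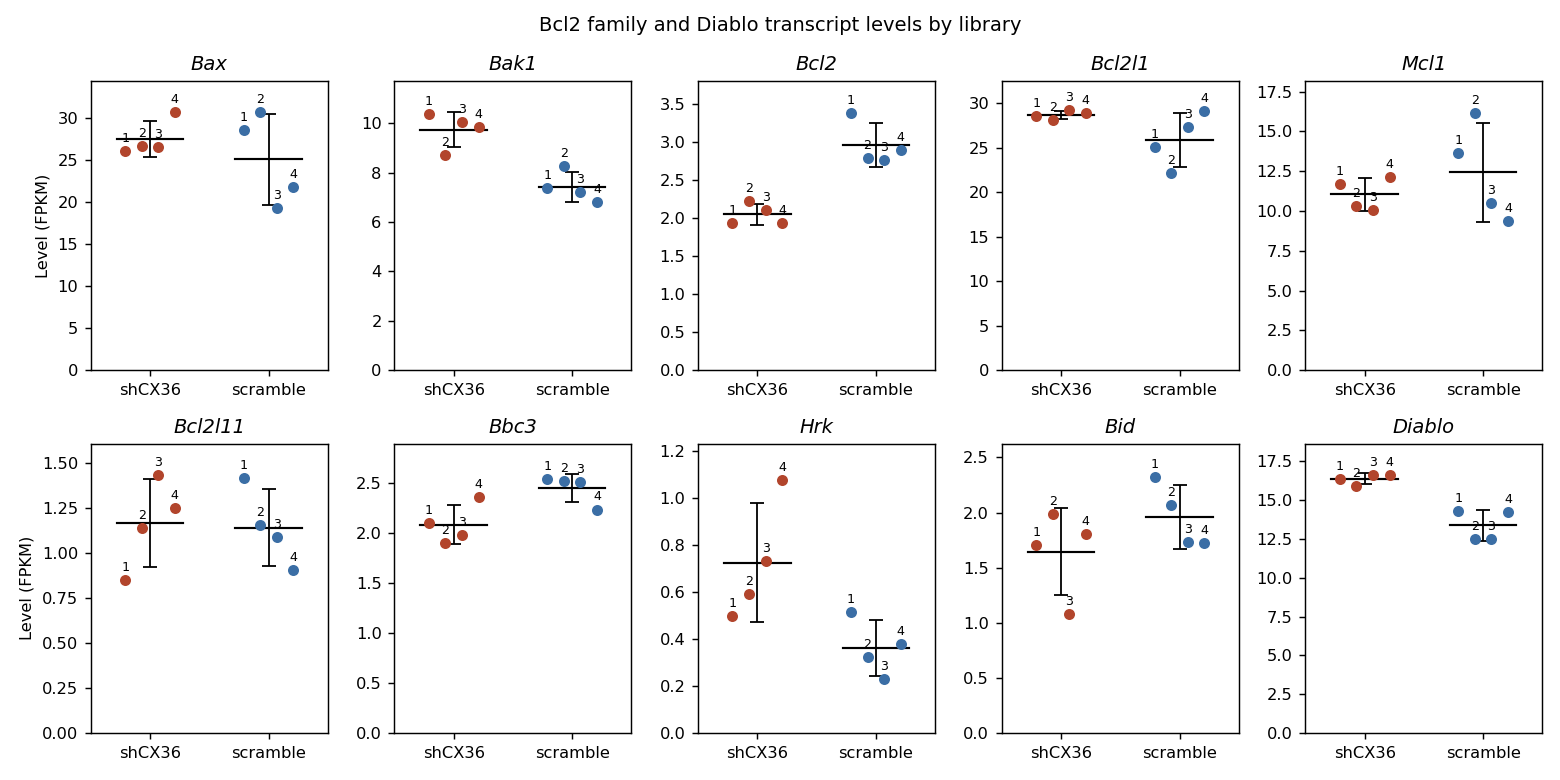
Transcript level in FPKM (vertical axes from 0) of the 10 genes in each library, AAV2-shCX36 in red and AAV2-scramble in blue, with the replicate number above each point and the mean ± SD of 4 libraries in black. The groups do not overlap for Bak1, Diablo and Bcl2, while AAV2-scramble 1 and 2 lie above 3 and 4 for Bax and Mcl1.

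The comparison of AAV2-shCX36 with AAV2-scramble was fitted in limma on log2(FPKM + 1) for every gene whose mean reached 1 FPKM, and a gene was called at a Benjamini-Hochberg adjusted p under 0.05. Of the 10 genes, 9 passed that filter and Hrk did not. Of the 9, Bak1 and Diablo were called higher and none was called lower, in a comparison where 4.76% of all genes were called, 2.24% higher and 2.52% lower. The groups did not overlap for 3 of the 9 genes, 2 higher and 1 lower, against 15.9% of all genes tested, 8.85% higher and 7.05% lower, and the median log2 difference was 0.02 against 0.01 for all genes. In the same libraries several marker lists moved. The 12 interferon response genes summed to 447 to 837 FPKM in AAV2-shCX36 and 44.5 to 108 in AAV2-scramble, with 11 called higher. The rod and Müller glia sums above were lower in AAV2-shCX36 with no overlap, with 7 of 10 and 5 of 8 markers called. The 9 cone markers (1674 to 2583 FPKM in AAV2-shCX36 against 2917 to 4424 in AAV2-scramble, 3 called lower) and the 5 horizontal cell markers (70.4 to 101 against 117 to 125, 1 called lower) did not overlap either. Of the microglia markers P2ry12 was called lower, and of the bipolar markers none was called. The 6 lens markers summed to 13.5 to 321 FPKM in AAV2-shCX36 against 0.388 to 15.2 in AAV2-scramble, which overlapped, and none was called. The 8 T and B lymphocyte markers listed summed to 0.824 to 2.65 against 0.237 to 0.489 FPKM, and none reached the filter for testing. Of these, Cd3e was at 0 in every AAV2-scramble library, while Cd79a averaged 0.0861 FPKM in AAV2-shCX36 and 0.0874 in AAV2-scramble. What part these shifts have in the values below was not tested, and in whole tissue fewer cells of a type and less RNA per cell cannot be told apart.

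Among the effectors, Bak1 rose and Bax did not pass. Bak1 (chromosome 17, 27019810 to 27029009, minus strand, GRCm38) encodes the effector that sits permanently in the outer mitochondrial membrane. It had 10.4, 8.70, 10.04 and 9.83 FPKM in AAV2-shCX36 libraries 1 to 4, against 7.36, 8.28, 7.20 and 6.81 FPKM in AAV2-scramble libraries 1 to 4. Every AAV2-shCX36 value lay above every control value, the closest being AAV2-shCX36 2 and AAV2-scramble 2. The means were 9.73 ± 0.721 FPKM in AAV2-shCX36 and 7.41 ± 0.624 in AAV2-scramble (SD, n = 4 each), 131% of the control mean, with a log2 difference of 0.35 ± 0.08 (SE, 95% interval 0.17 to 0.53) and an adjusted p of 0.0419 in limma. It rested on 655 to 791 fragments per library in AAV2-shCX36 and 531 to 595 in AAV2-scramble. With single libraries left out, Bak1 passed only without AAV2-scramble 2, with adjusted p from 0.0310 to 0.132. Without AAV2-scramble 1 and 2, the controls that stood apart, Bak1 had a log2 difference of 0.42 (adjusted p = 0.0266 in limma), and against those controls alone 0.28 (adjusted p = 0.0522), which ended the call. The fit without controls 1 and 2 called 565 higher and 393 lower of 12763 genes. The fit against controls 1 and 2 alone called 1542 higher and 1914 lower of 12948. With all 8 libraries the calls were 288 higher and 324 lower of 12858, so passing was commoner in the split fits. Bak1 had an adjusted p of 0.0625 in limma-voom on the recovered fragments. In the annotation, exons of Ggnbp1 on the opposite strand share up to 18.2% of the Bak1 exonic bases. Ggnbp1 averaged 1.91 FPKM, and no source used here says how strand was treated.

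Bax (chromosome 7, 45461697 to 45466898, minus strand), the effector that moves from cytosol to mitochondria, split the controls. It had 26.1, 26.6, 26.5 and 30.7 FPKM in AAV2-shCX36 libraries 1 to 4, against 28.5, 30.6, 19.3 and 21.8 FPKM in AAV2-scramble libraries 1 to 4. AAV2-scramble 1 and 2 lay within the AAV2-shCX36 range and AAV2-scramble 3 and 4 below it, with the mean of 1 and 2 at 144% of that of 3 and 4. The means were 27.5 ± 2.14 and 25.0 ± 5.39 FPKM in AAV2-shCX36 and AAV2-scramble, with a log2 difference of 0.15 ± 0.14 (95% interval -0.16 to 0.46, adjusted p = 0.555 in limma). Set against controls 3 and 4 alone, Bax had a log2 difference of 0.40 (adjusted p = 0.0305 in limma), and set against controls 1 and 2 alone, -0.10 (adjusted p = 0.364). The direction for Bax is thus set by which pair of controls is used. The oligodendrocyte and bipolar markers differ between the same pairs, and their part in the Bax values was not tested. In the annotation, a gene model on the same strand, Gm45808, shares 12.2% of the Bax exonic bases.

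Among the guardians, Bcl2 was lower in every AAV2-shCX36 library, while Bcl2l1 and Mcl1 overlapped. Bcl2 (chromosome 1, 106538178 to 106714274, minus strand) is the founding death-suppressing gene of the family. It had 1.94, 2.23, 2.10 and 1.94 FPKM in AAV2-shCX36 libraries 1 to 4, against 3.38, 2.79, 2.77 and 2.90 FPKM in AAV2-scramble libraries 1 to 4. AAV2-scramble 1 was the highest, and the other 3 controls lay close together above the AAV2-shCX36 range. The means were 2.05 ± 0.138 FPKM in AAV2-shCX36 and 2.96 ± 0.288 in AAV2-scramble, 69.4% of the control mean, with a log2 difference of -0.37 ± 0.09 (95% interval -0.58 to -0.17). Its adjusted p of 0.0511 in limma missed the threshold. The added 1 FPKM understates the size of the change at this level. With 0.1 FPKM added instead, limma gave -0.50, but the adjusted p of 0.0515 still missed the threshold. Bcl2 rested on 536 to 615 recovered fragments per library in AAV2-shCX36 and 736 to 945 in AAV2-scramble. On these, limma-voom gave -0.53 with an adjusted p of 0.0277. With each library left out in turn the limma adjusted p ran from 0.0528 to 0.149, and against controls 3 and 4 alone the log2 difference was -0.33 (adjusted p = 0.0978), against -0.42 with controls 1 and 2 alone (adjusted p = 0.0293).

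Bcl2l1 (chromosome 2, 152780668 to 152831728, minus strand), the gene of Bcl-xL, was even across AAV2-shCX36. It had 28.6, 28.1, 29.2 and 28.9 FPKM in AAV2-shCX36 libraries 1 to 4, against 25.1, 22.1, 27.3 and 29.2 FPKM in AAV2-scramble libraries 1 to 4. AAV2-scramble 1 and 2 were the low libraries, the reverse of their order for Bax. The log2 difference was 0.15 ± 0.08 (95% interval -0.03 to 0.33, adjusted p = 0.307 in limma), 0.02 against controls 3 and 4 alone (adjusted p = 0.830) and 0.27 against controls 1 and 2 alone (adjusted p = 0.0226). Mcl1 (chromosome 3, 95658788 to 95663176, plus strand), a short-lived guardian whose protein is quickly degraded, had 11.7, 10.3, 10.04 and 12.2 FPKM in AAV2-shCX36, against 13.7, 16.2, 10.5 and 9.38 in AAV2-scramble, each in library order. As for Bax and the bipolar markers, AAV2-scramble 1 and 2 were high, with a mean at 150% of that of 3 and 4. The log2 difference of Mcl1 was -0.13 ± 0.15 (95% interval -0.47 to 0.21, adjusted p = 0.649 in limma), turning to 0.14 without AAV2-scramble 1 and 2 (adjusted p = 0.410) and reaching -0.40 without AAV2-scramble 3 and 4 (adjusted p = 0.0258).

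None of the 4 BH3-only genes was called. Bcl2l11, Bbc3 and Bid were tested in limma, and none had an unadjusted p under 0.05. Bcl2l11 (Bim, chromosome 2, 128126038 to 128162547, plus strand), which binds every guardian, had 0.850, 1.14, 1.43 and 1.25 FPKM in AAV2-shCX36, against 1.42, 1.16, 1.09 and 0.903 in AAV2-scramble. The groups covered nearly the same range, and the log2 difference was 0.02 ± 0.13 (95% interval -0.27 to 0.30, adjusted p = 0.960 in limma). Bbc3 (Puma, chromosome 7, 16308393 to 16318205, plus strand), a classical p53 target, had 2.10, 1.90, 1.97 and 2.35 FPKM in AAV2-shCX36, against 2.54, 2.51, 2.50 and 2.23 in AAV2-scramble. The overlap rested on AAV2-shCX36 4 and AAV2-scramble 4, and the log2 difference was -0.16 ± 0.09 (95% interval -0.37 to 0.04, adjusted p = 0.314).

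Bid (chromosome 6, 120891930 to 120916853, minus strand), which links death receptors to mitochondria after cleavage by caspase 8, had 1.70, 1.98, 1.08 and 1.81 FPKM in AAV2-shCX36, against 2.32, 2.07, 1.74 and 1.72 in AAV2-scramble. AAV2-shCX36 3 was the lowest library, at 96 fragments, and the log2 difference was -0.17 ± 0.14 (95% interval -0.48 to 0.14, adjusted p = 0.488 in limma). Without that library the Bid difference was -0.06. Exons of Bcl2l13 on the opposite strand, at 8.96 FPKM, share 17.7% of the Bid exonic bases. Against controls 3 and 4 alone, Bcl2l11, Bbc3 and Bid had log2 differences of 0.11, -0.13 and -0.06 in limma (adjusted p = 0.687, 0.522 and 0.861), and against controls 1 and 2 alone -0.08, -0.20 and -0.28 (adjusted p = 0.706, 0.215 and 0.220). Hrk (Harakiri, chromosome 5, 118164648 to 118189478, plus strand), a BH3-only gene expressed mainly in neurons, had 0.499, 0.590, 0.731 and 1.08 FPKM in AAV2-shCX36, against 0.515, 0.322, 0.231 and 0.378 in AAV2-scramble. Only AAV2-scramble 1 reached into the AAV2-shCX36 range, and the means of 0.724 ± 0.253 and 0.361 ± 0.119 FPKM put AAV2-shCX36 at 200.3% of AAV2-scramble. Hrk was below the filter, at 102 to 217 fragments per library in AAV2-shCX36 and 47 to 105 in AAV2-scramble. With no filter its log2 difference was 0.33 in limma, with an unadjusted p of 0.0189 and an adjusted p over all 24860 genes of 0.210. Limma-voom with no filter gave Hrk a log2 difference of 0.99 (unadjusted p = 0.0161), since the added 1 FPKM understates the change at this level. In the filtered limma fit 22.6% of all genes tested had an unadjusted p under 0.05.

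Diablo (chromosome 5, 123509765 to 123524176, minus strand), the mitochondrial protein that binds and neutralises inhibitor of apoptosis proteins, rose. It had 16.4, 15.9, 16.6 and 16.6 FPKM in AAV2-shCX36 libraries 1 to 4, against 14.3, 12.5, 12.5 and 14.2 FPKM in AAV2-scramble libraries 1 to 4. The AAV2-shCX36 libraries lay within a narrow band, with a coefficient of variation of 2.12% where counting error alone gives 2.04%. In AAV2-scramble it was 7.52%, where counting error gives 2.26%, and the high and low controls did not follow the split into 1 and 2 against 3 and 4. The means were 16.4 ± 0.348 FPKM in AAV2-shCX36 and 13.4 ± 1.01 in AAV2-scramble, 122% of the control mean, with a log2 difference of 0.28 ± 0.06 (95% interval 0.13 to 0.42, adjusted p = 0.0448 in limma). Against controls 3 and 4 alone the log2 difference was again 0.28 (adjusted p = 0.0515), and against controls 1 and 2 alone 0.27 (adjusted p = 0.0285). With single libraries left out Diablo passed only without AAV2-scramble 4, with adjusted p from 0.0340 to 0.128. The fit without AAV2-scramble 4 called 575 higher and 591 lower of 12910 genes, the most of any fit with 1 library left out. Exons of B3gnt4 on the opposite strand share 21.5% of the Diablo exonic bases, at 0.192 FPKM. A gene model on the same strand, Gm49027, shares 19.3%.

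**Figure D2:**
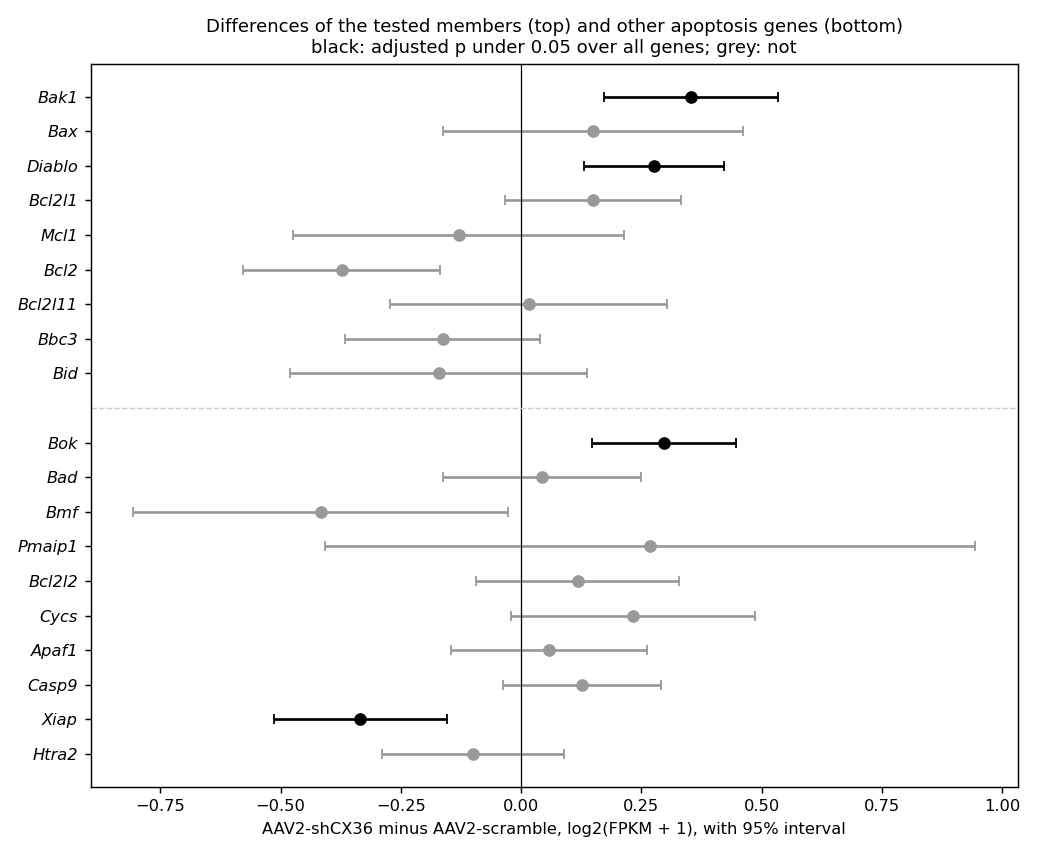
Difference of log2(FPKM + 1), AAV2-shCX36 less AAV2-scramble, with its 95% interval from limma (n = 4 each), for the 9 tested genes of the family set above the dashed line and 10 other apoptosis genes below it. Black marks an adjusted p under 0.05 over all genes: Bak1, Diablo and Bok are to the right of 0 and Xiap to the left.

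Ratios between opposing transcripts in the same library are given as a description with no test, and were chosen after the values were seen. Bax over Bcl2 was 13.4, 11.9, 12.6 and 15.8 in AAV2-shCX36 libraries 1 to 4, against 8.42, 11.0, 6.96 and 7.54 in AAV2-scramble libraries 1 to 4, with no overlap. Bcl2 by itself also separated the groups, and how often ratios of other genes do so was not tested. Bak1 over Mcl1 was 0.884 ± 0.0836 in AAV2-shCX36 and 0.616 ± 0.106 in AAV2-scramble, also with no overlap. Against Bcl2l1, the most abundant of the 3 guardians, the groups overlapped: Bak1 over Bcl2l1 was 0.309 to 0.362 in AAV2-shCX36 and 0.233 to 0.374 in AAV2-scramble, and Bax over Bcl2l1 was 0.956 ± 0.0716 and 0.993 ± 0.325. The summed Bax and Bak1 over the summed Bcl2, Bcl2l1 and Mcl1 also overlapped, at 0.862 to 0.942 in AAV2-shCX36 and 0.652 to 0.947 in AAV2-scramble. The 4 BH3-only genes over the same guardians gave 0.122 to 0.151 in AAV2-shCX36 and 0.126 to 0.161 in AAV2-scramble.

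**Figure D3:**
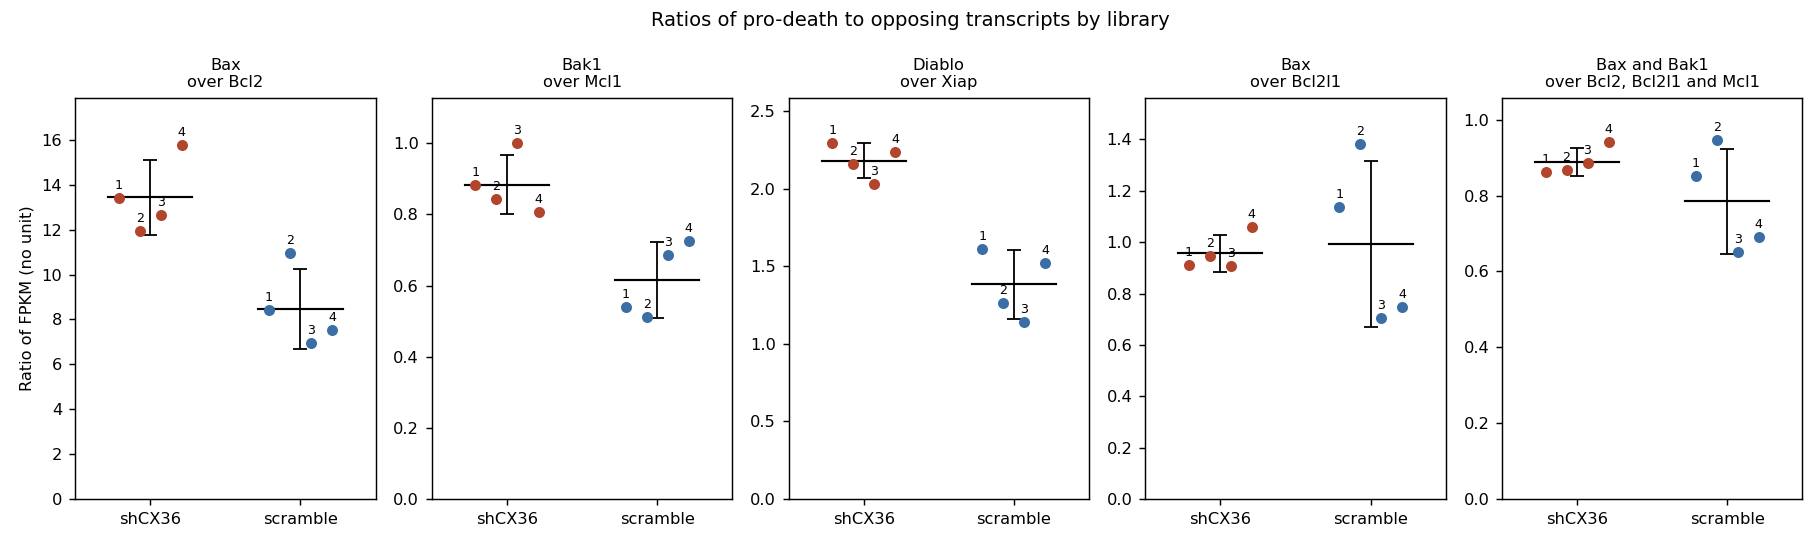
Ratio of FPKM within each library (vertical axes from 0), AAV2-shCX36 in red and AAV2-scramble in blue, with replicate numbers and the mean ± SD of 4 libraries. Bax over Bcl2, Bak1 over Mcl1 and Diablo over Xiap separate the groups, while Bax over Bcl2l1 and the summed effectors over summed guardians overlap. Diablo and Xiap each separate the groups in opposite directions, so their ratio does so by construction.

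Over the other pathway lists, Bok and Xiap were called, in a comparison where 4.76% of all genes were called, so these counts are near the background. Among 10 further Bcl2 family genes tested of 16 listed, Bok rose and none fell, with a median log2 difference of 0.06. Bok, an effector relative of Bax and Bak1, had 13.0, 14.5, 13.4 and 14.7 FPKM in AAV2-shCX36 libraries 1 to 4, against 11.8, 10.4, 10.9 and 11.4 in AAV2-scramble libraries 1 to 4, with no overlap (log2 difference 0.30 ± 0.07, adjusted p = 0.0402 in limma). It passed without AAV2-scramble 4, the omission with the most calls among all genes, and with no other library left out. It also passed in 6 of 12 processing alternatives, and had an adjusted p of 0.0770 in limma-voom. In limma it was 0.0515 against controls 3 and 4 alone and 0.0325 against controls 1 and 2 alone. The guardian Bcl2l2 (Bcl-w) had 28.6 ± 1.38 FPKM against 26.5 ± 3.51 (adjusted p = 0.488), a level near that of Bcl2l1. The BH3-only genes Bad, Bmf and Pmaip1 (Noxa) had log2 differences of 0.04, -0.42 and 0.27 in limma, with adjusted p of 0.813, 0.196 and 0.631.

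Downstream of the membrane, 17 of 19 listed apoptosome, caspase and inhibitor genes were tested. Xiap fell and none rose, with a median log2 difference of 0.00. Xiap, the caspase inhibitor that Diablo binds, had 7.16, 7.36, 8.20 and 7.44 FPKM in AAV2-shCX36 libraries 1 to 4, against 8.86, 9.95, 11.0 and 9.34 in AAV2-scramble libraries 1 to 4. The groups did not overlap (log2 difference -0.33 ± 0.08, adjusted p = 0.0472 in limma and 0.0367 in limma-voom), and 2 of the 8 fits with 1 library left out kept the call, with adjusted p up to 0.142. Over 12 processing alternatives Xiap passed in 6, with adjusted p from 0.0367 to 0.0982. Its adjusted p was 0.0424 against controls 3 and 4 alone and 0.0429 against controls 1 and 2 alone. Diablo over Xiap was 2.18 ± 0.113 in AAV2-shCX36 and 1.38 ± 0.221 in AAV2-scramble. Since Diablo was higher and Xiap lower with no overlap, their ratio separates the groups by construction. Cycs (cytochrome c) had 15.9 ± 0.299 FPKM against 13.6 ± 2.38, Apaf1 2.55 ± 0.223 against 2.41 ± 0.180 and Casp9 12.4 ± 1.02 against 11.3 ± 0.574, with adjusted p of 0.259, 0.744 and 0.332 in limma. Htra2, a mitochondrial protease that also binds Xiap once released, had an adjusted p of 0.513.

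Upstream, none of 15 tested p53 and stress regulators, none of 10 tested p53 targets outside the family, none of 6 tested death receptor genes and none of 14 tested outer membrane and fission genes was called in limma, where 4.76% of all genes were, so that counts of 0 in lists of this size are near the background. Unadjusted p were under 0.05 for 6, 2, 1 and 3 of them, where 22.6% of all genes tested had such a p. The medians were 0.08, 0.07, 0.02 and 0.13 on the log2 scale. Trp53 had 10.8 ± 0.859 FPKM in AAV2-shCX36 and 9.59 ± 2.31 in AAV2-scramble (adjusted p = 0.503), and its targets Mdm2 and Cdkn1a had log2 differences of -0.04 and -0.10 (adjusted p = 0.794 and 0.897). Jun, a factor induced by axon injury, had 96.5 ± 13.9 FPKM against 80.7 ± 29.2, and Map3k12 (DLK), the kinase that acts above it, 15.9 ± 0.681 against 15.4 ± 0.763 (adjusted p = 0.481 and 0.728). The stress factor Ddit3 (CHOP) had an adjusted p of 0.352. Some calls appeared when the controls were split, in fits where calls were commoner among all genes. Against controls 3 and 4 alone Trp53 and Pmaip1 passed with log2 differences of 0.41 and 0.83 in limma (adjusted p = 0.0329 and 0.0412). Against controls 1 and 2 alone Cycs, Bmf and Cdkn1a passed with 0.41, -0.68 and -0.80 (adjusted p = 0.0171, 0.0138 and 0.0225). Vdac2, the membrane channel that holds Bak1, had 99.8 ± 3.21 FPKM against 100.4 ± 7.78 (95% interval of the log2 difference -0.16 to 0.15, adjusted p = 0.972).

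The genes whose profile over the 8 libraries lay closest to Bak1 were Tubgcp2, Dap and Nrbp2, with root-mean-square differences of 0.0585, 0.0613 and 0.0650 between centred log2 levels. Those closest to Diablo were Tango2, Rangap1 and Igsf8, each at 0.0444. Since Bak1 and Diablo separate the groups, genes chosen for a like profile do so by choice.

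**Figure D4:**
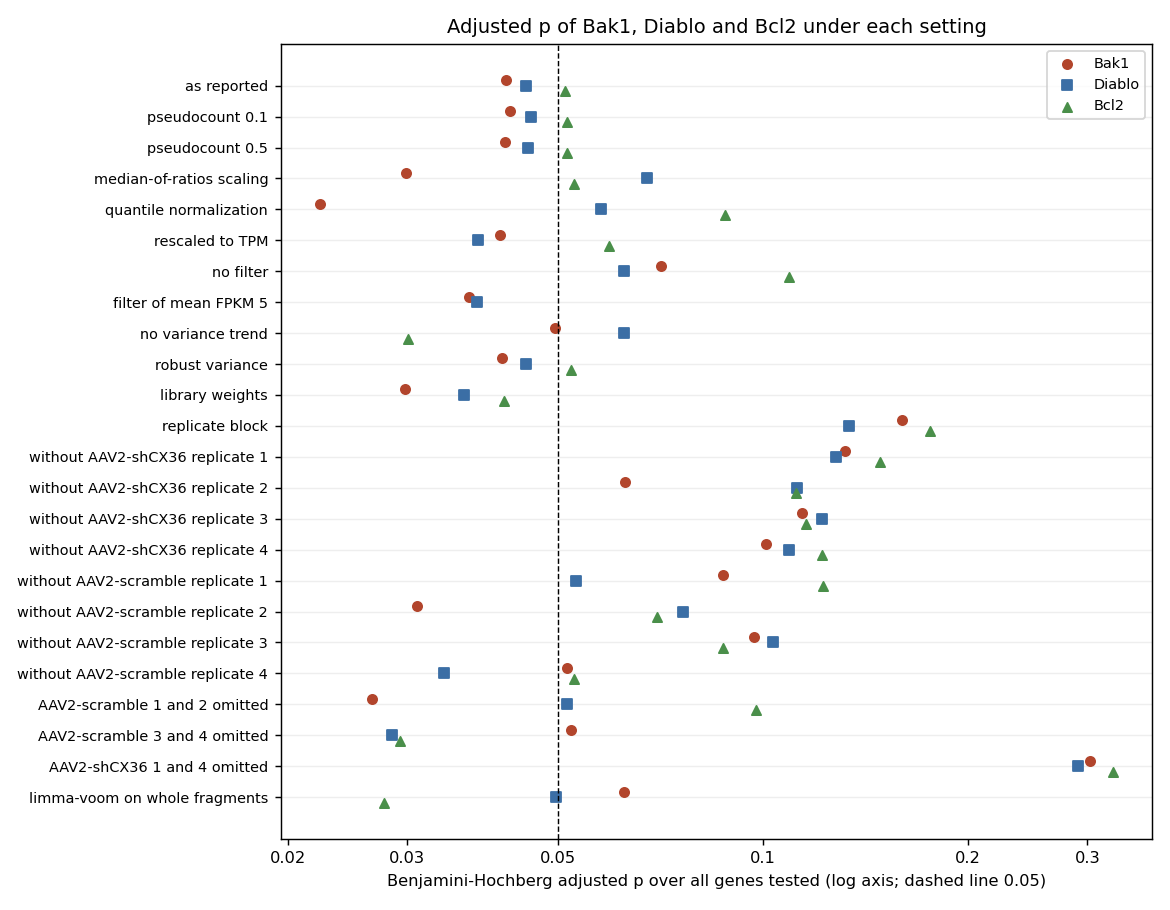
Benjamini-Hochberg adjusted p over all genes tested (horizontal log axis, dashed line at 0.05) for Bak1, Diablo and Bcl2 in each setting, from limma on log2(FPKM + 1) except the last row. Points cross the line in both directions, and with single libraries left out most lie to its right; Bcl2 has no point at the filter of 5 FPKM, which it did not pass.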

How the data were processed

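Total RNA of mouse retina was sequenced as paired-end reads, per the labels' protocols. The submitters' processing notes name fastp, HISAT2, HTSeq, R 3.2.0 and DESeq2 and the builds GRCm38 and mm10. The deposited table holds FPKM made by the authors, with 0 unmatched value columns. Library totals were read from the steps of low FPKM values, and each gene's values were then divided by its largest common step. For the 10 genes and Gjd2 the result was whole within 6.6e-06 of a fragment. Columns were matched to samples by name, and groups come from the sample titles.

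log2(FPKM + 1) was fitted for the 12858 genes averaging 1 FPKM or more by lmFit and eBayes with a trend (limma 3.58.1, R 4.3.3), and SE are moderated. p-values were adjusted over all genes tested. No count model was the main test, since FPKM are not counts. limma-voom on recovered fragments was added after seeing the data. The script was tested on simulated data. Positions are from GENCODE vM21 (GRCm38). Figures were drawn with matplotlib 3.10.9, and tables made with numpy 2.4.6 and pandas 2.3.3 in Python 3.11.15.

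The 10 genes, the pathway and marker lists and the omitted pairs of libraries were chosen with earlier results of these data known. Named genes are the 10, Gjd2, every called gene of a pathway list, a fixed set of pathway genes (1 of which is not reported here), and the 3 closest profiles to each called gene of the 10. The same-numbered libraries are not stated to share an animal or batch. Counting error is given from fragments only and covers no other source of error.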

Additional observations from a re-analysis of the deposited data

Results flagged for a closer look

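Each group of 4 libraries was searched for a value far from the others, for the 10 genes and Gjd2, and 2 of 22 groups held one, where chance gives about 1 in 20. Bax had 30.7 FPKM in AAV2-shCX36 4, against 26.1 to 26.6 in the other AAV2-shCX36 libraries. Bbc3 had 2.23 FPKM in AAV2-scramble 4, against 2.50 to 2.54 in the other AAV2-scramble libraries.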

How the results depend on the processing

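Bak1, Diablo and Bcl2 kept their direction in all 23 alternatives in which they could be fitted (22 for Bcl2), but their calls sat at the threshold. Of the 9 genes tested, 2 were called in limma as reported, 1 after median-of-ratios scaling and 1 after quantile normalization (Bak1 each time). With no filter 0 of 10 were called (4 at an unadjusted p under 0.05). With AAV2-scramble 3 and 4 omitted 4 were called (Bcl2, Bcl2l1, Diablo and Mcl1). That fit called 1542 higher and 1914 lower of 12948 genes tested. With AAV2-shCX36 1 and 4 omitted 0 were called (3 at an unadjusted p under 0.05), where 68 higher and 28 lower of 12800 genes were called. Library weights gave 3, limma-voom 2 (Bcl2 and Diablo), and no variance trend 2 (Bak1 and Bcl2), with Diablo at an adjusted p of 0.0624 and neither Bok nor Xiap called. The call of Xiap was also lost with median-of-ratios scaling, quantile normalization, TPM, no filter and the block. Of all 12858 genes, library weights called 370 higher and 355 lower, limma-voom 249 and 297, and no variance trend 231 and 263. Median-of-ratios scaling called 235 higher and 358 lower, and quantile normalization 268 and 389. Without any 1 library 0 to 1 of the 9 genes were called, and 3 or 4 had an unadjusted p under 0.05.

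The replicate number as a block gave 0 calls among the 9 (3 at an unadjusted p under 0.05), and of all genes called it left 164. Same-numbered deviations correlated at 0.128, -0.302, 0.226 and -0.269. Such values cannot show whether same-numbered libraries share an animal or batch, and the labels do not state it. In the pairing test the Gjd2 level differed by -11.98 FPKM (exact p = 0.125, the smallest possible for 4 pairs). Without any 1 library the Gjd2 difference ran from -15.38 to -8.27 FPKM, with an exact p of 0.171 when an AAV2-shCX36 library was left out.

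The number of all genes called was 612, and it was 311 with no filter, 171 to 1166 without any 1 library, 958 and 3456 with AAV2-scramble 1 and 2 or 3 and 4 omitted, and 96 with AAV2-shCX36 1 and 4 omitted. Log2 differences that turned sign, none of them past the threshold, were as follows. With AAV2-scramble 1 and 2 omitted Mcl1 was 0.139, Htra2 0.00826, Bad -0.0491, Bcl2l2 -0.0208, Mdm2 0.00342 and Cdkn1a 0.593. With AAV2-scramble 3 and 4 omitted Bax was -0.105, Bcl2l11 -0.0827, Apaf1 -0.00724, Pmaip1 -0.289, Trp53 -0.0695, Jun -0.0999 and Vdac2 0.0612. With AAV2-shCX36 1 and 4 omitted Bad was -0.0113. Bcl2l11 was -0.0566 after quantile normalization and -0.0113 with library weights, Cdkn1a 0.0134 with library weights and Vdac2 0.00349 rescaled to TPM. Without any 1 library the ranges were -0.0424 to 0.0891 for Bcl2l11, -0.00515 to 0.108 for Bad, -0.0595 to 0.0296 for Vdac2, -0.384 to 0.192 for Cdkn1a and -0.0684 to 0.00705 for Mdm2. The omissions test fewer libraries and the unfiltered fit more genes; for the other settings the cause was not tested. Hrk, Bid and Bbc3 had the lowest fragment counts, with a counting error of 14.6%, 10.2% and 5.91% in their lowest library.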
